A study of Homo sapiens with 4 samples.

Results

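Polycomb repressive complex 2 (PRC2) is described here through 9 genes chosen by name: the catalytic subunit genes EZH2 and EZH1, the core genes EED and SUZ12, the histone-binding subunit genes RBBP4 and RBBP7, and the accessory genes JARID2, MTF2 and PHF19. Each symbol matched exactly 1 of the 20804 genes listed in the table. Sequencing of total RNA covered 4 libraries of MDA-MB-231, a long-established human line grown from a triple-negative breast cancer, a tumour without oestrogen and progesterone receptors and without amplified HER2. There were 2 libraries of unmodified cells (wild type, WT) and 2 of cells whose genotype is labelled miR-3662-KO (KO), where miR-3662 is a microRNA. The title of the series names CRISPR interference and activation instead, and the design text describes sorting on microRNA activity, so what KO stands for is uncertain. The labels are silent on how the KO cells were made and on whether each pair of libraries came from separate cultures or from 1 clone. Each p-value hence reflects only the variation among these libraries, possibly technical.

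PRC2 adds methyl groups to lysine 27 of histone H3, a mark of silenced genes that keeps developmental regulators off in cells that do not need them. EZH2 or EZH1 transfers the methyl group, and either enzyme is inactive without EED, which reads the finished mark and stimulates the enzyme, and SUZ12, the scaffold. RBBP4 and RBBP7 hold histones, MTF2 and PHF19 are Polycomb-like proteins that bring the complex to CpG-rich DNA, and JARID2 belongs to an alternative form of the complex. EZH2 is the form of dividing cells and is often abundant in aggressive breast cancer, whereas EZH1 is also made in resting cells.

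The microRNA is the item by which the labels tell the groups apart, so its sequence and its seed matches in the PRC2 genes come first. Capitals mark the seed in the mature RNA, bases 2 to 8 from the 5′ end. The sequence is that of RefSeq (GRCh38.p14), on chromosome 6 from 134979355 to 134979378, minus strand.
hsa-miR-3662: gAAAAUGAugaguagugacugaug
A 3′ UTR can pair with this seed through the 7 letters TCATTTT. Taking 1 annotated 3′ UTR per gene, the longest (GENCODE 29, GRCh38), 4 of the 9 PRC2 genes held 6 such matches in all, and 5620 of 19047 genes with a 3′ UTR (29.5%) held at least 1. The match is short and rich in A and T, and long 3′ UTRs hold it more often, as the shares by length given after the sequences show. A match is a description and not a shown target site. The 6 matches follow 5′ to 3′ in the strand of the mRNA, in capitals, with the bases around them.
SUZ12, chr17:32000001-32000030, plus strand: gctgacttgaaTCATTTTgagcaattttgc
EED, chr11:86278081-86278110, plus strand: ccatccttaagTCATTTTtaacatttactg
RBBP7, chrX:16844744-16844773, minus strand: gttttaagtccTCATTTTctcaaactaagt
MTF2, first match, chr1:93137985-93138014, plus strand: gtaaatgtctcTCATTTTtaacagtaagtc
MTF2, second match, chr1:93138329-93138358, plus strand: ttggtggctatTCATTTTacttttaaaagt
MTF2, last match, chr1:93138826-93138855, plus strand: atcatattattTCATTTTccccaaagtcct
The second match of MTF2 is followed by an A, the longest form of seed match. The EED match begins 97 nucleotides after the stop codon in a 3′ UTR of 740 nucleotides, and 16.6% of genes with a 3′ UTR of like length (within a factor of 1.25) held a match. For RBBP7, with 694 nucleotides, that share was 15.4%, for SUZ12 41.4% and for MTF2 41.3%. RBBP4 held none in 6506 nucleotides, a length at which 82.3% of genes did. EZH2, with a 3′ UTR of 262 nucleotides, EZH1, JARID2 and PHF19 held none either.

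Promoters were read for the letters of an E2F site, since EZH2 and EED are known targets of the E2F factors that drive S phase. The words searched on both strands were TTTCCCGC, TTTGGCGC, TTTCGCGC and TTTGCCGC, in windows of 300 bases, from 250 before to 50 after a start (RefSeq, GRCh38.p14). All 9 genes matched the promoter table, which lists 2 windows, for alternative starts, for 5 of them. In the first window listed, 4 of the 9 genes held a word, against 3.33% of 27305 genes. Over every window listed, a count chosen after seeing the data, 5 of the 9 did, against 3.99%, and the added gene was PHF19 through its second window. The stretch around each word is shown 5′ to 3′ in the strand of the gene, with the word or its reverse complement in capitals.
EZH2, chr7:148884257-148884316, minus strand: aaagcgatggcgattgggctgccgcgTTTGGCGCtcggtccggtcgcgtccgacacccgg
EZH1, chr17:42745122-42745181, minus strand: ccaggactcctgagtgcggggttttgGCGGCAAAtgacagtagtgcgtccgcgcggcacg
SUZ12, chr17:31936792-31936851, plus strand: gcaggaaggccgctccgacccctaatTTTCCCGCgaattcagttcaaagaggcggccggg
MTF2, chr1:93079262-93079321, plus strand: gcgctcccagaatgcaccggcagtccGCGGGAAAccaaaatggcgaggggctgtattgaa
PHF19, second window, chr9:120877307-120877366, minus strand: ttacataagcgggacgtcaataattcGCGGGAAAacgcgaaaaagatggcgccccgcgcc
The word of EZH2 starts at base 2 and that of MTF2 at base 6 counted from the annotated start, and those of EZH1, SUZ12 and PHF19 lie at -115, -189 and -152 from the start site of their window. Both windows of PHF19 lie inside the annotated span of the gene, at starts downstream of its outermost one, which was not read here. G and C made up 52.3% to 78.3% of the first windows, above the median of 58.3% over all genes in 8 of 9 and below it in EED. Windows of like G and C content were not compared. EED held no such word in its window. In the first windows, the word TTTGAA of late cell cycle promoters was in that of SUZ12 only, against 15.43% of all genes, and 3 copies of TTCA in a row, a repeat that the repressor HBP1 is known to bind, was in none of the 9, against 0.15% of all genes.

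In WT cells the PRC2 genes spanned a wide range of levels. All levels are FPKM, fragments scaled to transcript length and to the mapped fragments of the library, which can be compared between genes. PHF19 was highest at 125 ± 6.43 FPKM (mean ± SD, n = 2) and RBBP7 next at 109 ± 1.92. By the mean over all 4 libraries, WT and KO, both stood above at least 96.0% of the listed genes. EZH2 followed at 45.5 ± 1.08, EED at 28.6 ± 2.50, RBBP4 at 17.4 ± 1.42, SUZ12 at 14 ± 3.86 and MTF2 at 11.2 ± 1.58. JARID2 at 4.54 ± 0.375 and EZH1 at 3.87 ± 0.870 were lowest. In this order the values of RBBP4 and SUZ12, of SUZ12 and MTF2, and of JARID2 and EZH1 overlapped between neighbours, and the other neighbours were apart. In KO cells PHF19 (108 ± 10.7) and RBBP7 (104 ± 6.99) overlapped, and JARID2 and EZH1 had changed places, with both EZH1 values above both JARID2 values. Summed over the 9 genes the level was 358 and 359 FPKM in WT, and 331 and 312 in KO. PHF19 and RBBP7 made up most of each sum, so it says little of the other genes. In bulk RNA like this, fewer cells that make a transcript and less of it per cell cannot be told apart.

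**Figure D1:**
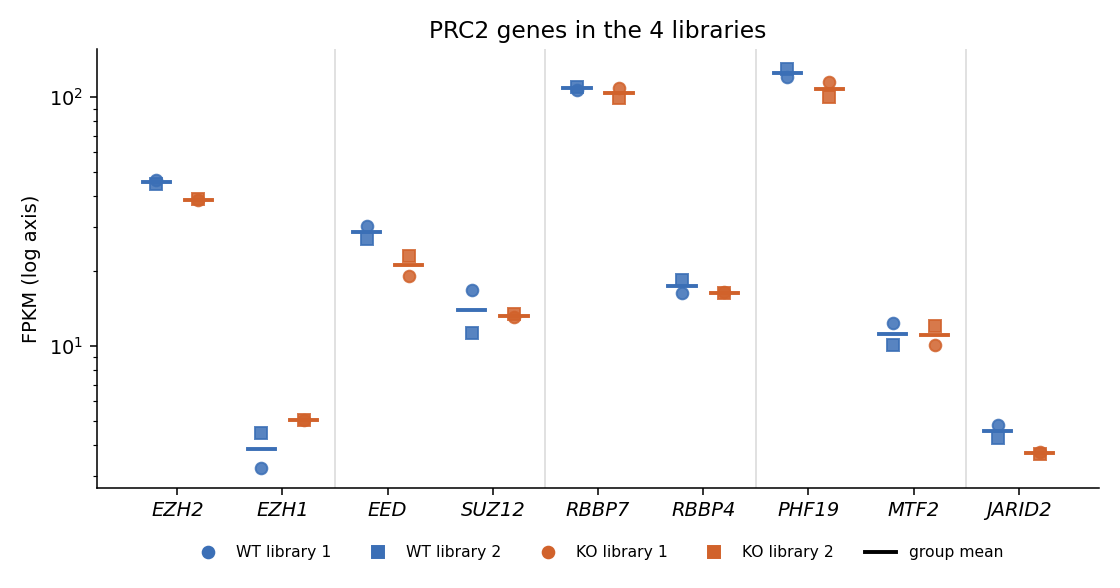
FPKM of the 9 PRC2 genes on a log axis, with 1 point per library (blue WT, orange KO, circle for the first and square for the second library) and a bar at each group mean. PHF19 and RBBP7 lie near or above 100 FPKM and EZH1 and JARID2 near 5 or below, and the KO points of EZH2, EED, JARID2 and PHF19 lie below both WT points.

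The comparison of KO with WT asked which PRC2 genes differ between cells with and without the labelled loss of miR-3662. None of the 9 genes passed the test, and 1 (EED) had an unadjusted p under 0.05 (limma on log2(FPKM + 1), Benjamini-Hochberg over all 11786 genes tested, adjusted p under 0.05). All 9 had passed the filter of at least 1 FPKM in at least 2 libraries. Over all genes tested 27% were called, 16.2% higher and 10.8% lower in KO, and 41.3% had an unadjusted p under 0.05. The adjusted p of the 9 genes ran from 0.0629 to 0.962. Their log2 fold changes had a median size of 0.21, against 0.29 for all genes tested, and every 95% interval (unadjusted) lay between -0.76 and 0.72. A change of 1 or more on this log2 scale, in either direction, was thus outside the interval of each of the 9 genes, whereas smaller changes could be missed with 4 libraries.

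In direction, 8 of the 9 log2 fold changes were below 0 and only that of EZH1 was above, with a median of -0.079 against 0.074 for all genes tested. Over all genes 43.0% were below 0. With libraries rescaled by their median of ratios to a common reference, 8 were again below 0, against 51.9% of all genes, with medians of -0.18 and -0.021. The KO values lay entirely below the WT values for EZH2, EED, JARID2 and PHF19 and entirely above for EZH1, so 5 of 9 genes did not overlap between groups, against 68% of all genes tested (39.3% higher and 28.7% lower in KO). Of these 5 genes 4 were lower and 1 was higher in KO, and with so few genes no difference from these shares was tested.

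**Figure D2:**
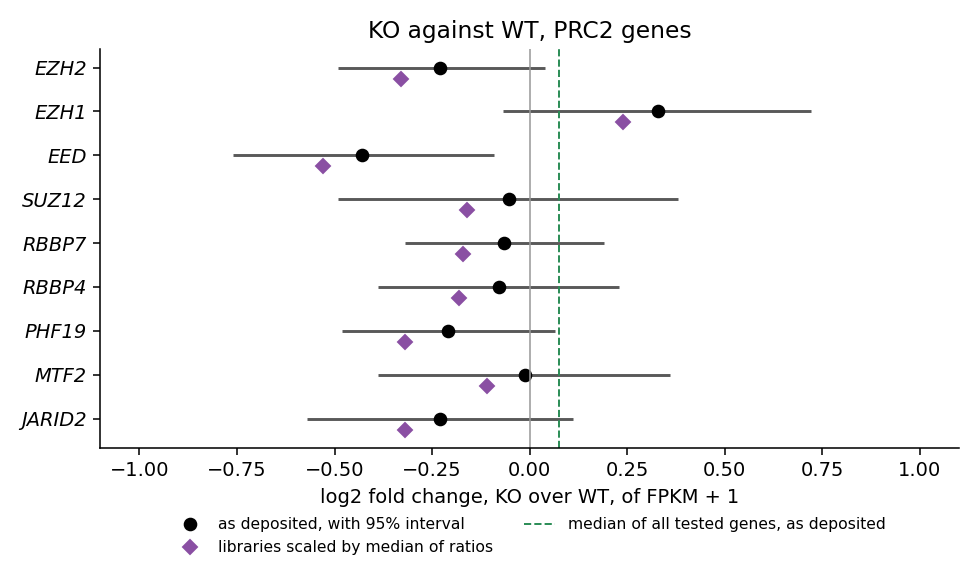
Log2 fold change of FPKM + 1, KO over WT, of each PRC2 gene as deposited (black, bars are unadjusted 95% intervals) and after scaling the libraries (purple, no interval drawn), with the median of all genes tested at 0.074 (dashed). Only the interval of EED, -0.76 to -0.092, leaves out 0, and scaling moves every point to the left.

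EZH2, the main methyltransferase of the complex (gene identifier 2146, chr7:148807383-148884291, RefSeq on GRCh38.p14 here and for the other genes), was at 46.29 and 44.76 FPKM in WT and at 38.64 and 38.93 in KO. The replicates lay close together, and both KO values were below both WT values. The KO mean was 0.852 times the WT mean, which is -0.23 ± 0.11 (SE) as a log2 fold change, interval -0.49 to 0.04 (limma adjusted p 0.175). After scaling the value was -0.33 (adjusted p 0.0669), so it did not pass on either scale.

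EZH1, the second methyltransferase (2145, chr17:42700275-42745040), was at 3.25 and 4.48 FPKM in WT and at 5.04 and 5.07 in KO. Both KO values exceeded the WT values, but the WT libraries differed from each other by 0.37 on the log2(FPKM + 1) scale, where the median gene differed by 0.15. The log2 fold change was 0.33 ± 0.17 (adjusted p 0.185). It was 0.14 without the first WT library and 0.51 without the second.

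The 2 enzymes can be set against each other within a library, which removes any scaling between libraries. EZH2 was 14.2 and 9.99 times EZH1 in WT, and 7.67 and 7.68 times in KO. Both KO ratios were below both WT ratios, and the mean log2 ratio went from 3.58 ± 0.36 to 2.94 ± 0.0016 (SD, n = 2), a difference of -0.64. An exact permutation test (two-sided) gave p = 0.333, the smallest value that 2 libraries against 2 can reach. The difference was -0.38 without the first WT library and -0.89 without the second, and -0.64 without either KO library, so its size rests on which WT library is used.

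EED, which reads the methyl mark (8726, chr11:86244753-86287615), had the largest change in size among the 9 genes. It was at 30.38 and 26.84 FPKM in WT and at 19.17 and 23 in KO, with no overlap. The KO mean was 0.737 times the WT mean, a log2 fold change of -0.43 ± 0.14 (interval -0.76 to -0.092). In the limma test the adjusted p was 0.0629 (unadjusted 0.0189), and after scaling the libraries EED passed at -0.53 with an adjusted p of 0.0283, 1 of 9 genes against 27.5% of all genes on that scale. With each library left out in turn, the log2 fold change stayed between -0.55 and -0.30 and the adjusted p between 0.0727 and 0.259.

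SUZ12, the scaffold of the core (23512, chr17:31937007-32001038), was at 16.75 and 11.29 FPKM in WT and at 13.05 and 13.4 in KO. Both KO values fell between the WT values, and the WT libraries differed by 0.53 on the log2 scale, the largest difference between replicates among the 9 genes. The log2 fold change was -0.054 (interval -0.49 to 0.38, adjusted p 0.851), and it turned to 0.21 without the first WT library. The pseudogene SUZ12P1, a partial copy on the same chromosome, was listed at 1.56, 2.13, 1.91 and 1.70 FPKM in the same order of libraries. Neither labels nor header say how reads that fit both were assigned, so the level of SUZ12 is uncertain to that extent.

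RBBP7, one of the histone-binding WD-repeat subunits (5931, chrX:16844341-16870362), was at 107.22 and 109.93 FPKM in WT and at 108.79 and 98.91 in KO. RBBP4, its close relative (5928, chr1:32651208-32686211), was at 16.41 and 18.42 in WT and at 16.52 and 16.29 in KO. The groups overlapped for both genes, with log2 fold changes of -0.065 (interval -0.32 to 0.19, adjusted p 0.684) and -0.079 (interval -0.39 to 0.23, adjusted p 0.683). Without the second KO library the value of RBBP7 was 0.0029. RBBP7 exceeded RBBP4 6.53 and 5.97 times in WT and 6.59 and 6.07 times in KO, so the groups overlapped (difference of the log2 ratio of RBBP4 over RBBP7 -0.018, exact permutation p = 0.667). Its sign differed with the library left out, from -0.083 without the first WT library to 0.047 without the second.

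PHF19, a Polycomb-like accessory gene (26147, chr9:120855651-120904128), was at 120.24 and 129.33 FPKM in WT and at 115.61 and 100.45 in KO. The groups did not overlap, and the KO mean was 0.866 times the WT mean, a log2 fold change of -0.21 ± 0.12 (adjusted p 0.219). It was -0.11 without the second KO library (adjusted p 0.579) and -0.31 without the first (0.124). MTF2, the other Polycomb-like gene (22823, chr1:93079283-93139076), was at 12.34 and 10.11 in WT and at 10.14 and 12.07 in KO, a near-complete overlap with a log2 fold change of -0.013 (interval -0.39 to 0.36, adjusted p 0.962). Its sign turned without the first WT library (0.12) or the first KO library (0.10). PHF19 exceeded MTF2 9.74 and 12.8 times in WT and 11.4 and 8.32 times in KO, with overlapping groups (difference of the log2 ratio of MTF2 over PHF19 0.20, exact permutation p = 0.667). That difference was -0.03 without the second KO library.

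JARID2, which helps the complex bind chromatin (3720, chr6:15246069-15522042), was at 4.81 and 4.28 FPKM in WT and at 3.74 and 3.69 in KO. The groups did not overlap, and the log2 fold change was -0.23 ± 0.15 (interval -0.57 to 0.11, adjusted p 0.268). The antisense gene JARID2-AS1 was listed at 0 in all 4 libraries.

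**Figure D3:**
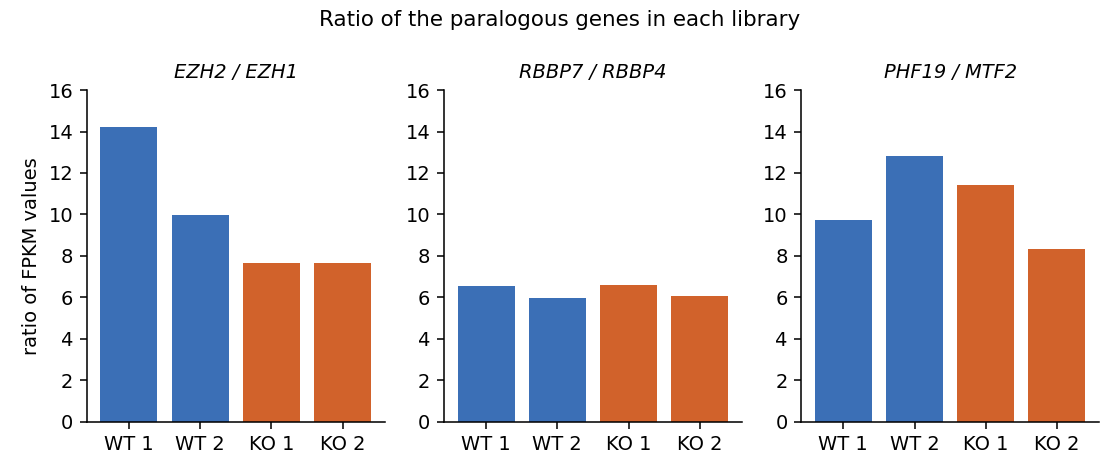
Ratio of FPKM of the more abundant to the less abundant gene of each related pair in each library (bars from 0, blue WT, orange KO, no error bar because each bar is 1 library). EZH2 over EZH1 is 14.2 and 9.99 in WT and 7.67 and 7.68 in KO, whereas the WT and KO bars of the other pairs overlap.

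The 4 genes with a seed match, SUZ12, EED, RBBP7 and MTF2, had log2 fold changes of -0.054, -0.43, -0.065 and -0.013, and none was called. The sign of SUZ12, RBBP7 and MTF2 turned with a library left out. MTF2, with 3 matches, had the smallest change in size of the 9 genes. As background, loss of a microRNA usually raises the RNA of its targets or leaves it as it was. Of the genes without a match, EZH1 was above 0, and EZH2, RBBP4, JARID2 and PHF19 were below. Whether the matches bear on any of these values was not tested. Among the 5 genes with an E2F word in any window the values were -0.23 for EZH2, 0.33 for EZH1, -0.054 for SUZ12, -0.013 for MTF2 and -0.21 for PHF19.

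Each PRC2 gene was also set beside the 10 genes tested on either side of it along its chromosome, to show how its surroundings changed. PHF19, on chromosome 9, was at -0.21 and its 20 neighbours had a median of -0.27. EZH2, on chromosome 7, was at -0.23 and its neighbours had a median of -0.084. EED, on chromosome 11, was at -0.43 while its neighbours had a median of 0.27. RBBP4, on chromosome 1, was at -0.079 while its neighbours had a median of 0.35. For MTF2 the neighbours had a median of 0.19 and for the other 4 genes between 0.044 and 0.087. EED and RBBP4 thus lay furthest below, and PHF19 close to, the median change of their surroundings. The stretch covered differed in width, with neighbours starting from 82973133 to 93478472 for EED and from 42536241 to 42980565 for EZH1. Of the 20 neighbours, 7 of EED were called higher and 2 lower, and 2 of PHF19 higher and 5 lower, against 16.2% and 10.8% of all genes. For the other 7 genes, 0 to 5 neighbours were called higher and 1 to 4 lower.

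**Figure D4:**
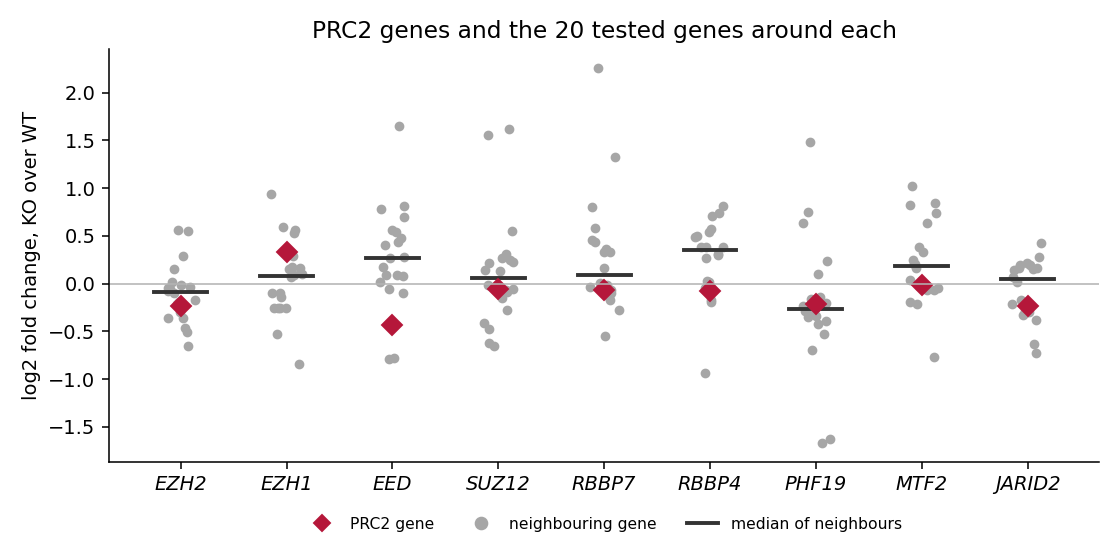
Log2 fold change, KO over WT, of each PRC2 gene (red diamond), of the 20 genes tested around it (grey points, spread sideways for legibility) and their median (bar). EED at -0.43 lies below its neighbours' median of 0.27, and PHF19 at -0.21 lies near the median of -0.27.

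Other subunits and cofactors that join PRC2 were also read. Of 6 listed genes 5 were tested and none was called (0 higher, 0 lower), against 27% of all genes, and 4 of 5 did not overlap between groups, against 68%. EPOP, a cofactor found with the Polycomb-like forms, averaged 12.7 ± 0.226 FPKM in WT against 8.96 ± 1.21 in KO. Its log2 fold change was -0.47 (limma adjusted p 0.0521). EPOP passed after scaling (-0.57, adjusted p 0.0305), with a filter of 5 FPKM (0.0432) and without the mean-variance trend (0.0482). It did not pass with a pseudocount of 0.1 (0.0516), without the filter (0.114) or with a replicate block (0.0933). AEBP2, the partner of JARID2 in its form of the complex, had a value of -0.30 (adjusted p 0.168). PHF1, the third Polycomb-like gene, had a value of 0.33 (adjusted p 0.150), and LCOR, whose locus encodes a PRC2-binding protein, of 0.022 (adjusted p 0.944), which turned to -0.069 after scaling. Both EPOP values in KO lay below both WT values, as for EED and EZH2.

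PRC1, the complex that binds the mark made by PRC2 and adds ubiquitin to histone H2A, also had few calls. Of 28 tested genes 1 was called higher and 2 lower, 10.7% against the 27% of all genes, with a median log2 fold change of -0.039 (0 higher and 4 lower after scaling). BCOR, a corepressor of a variant form of PRC1, fell from 8.57 ± 0.629 to 4.15 ± 0.148 FPKM (mean ± SD, n = 2, log2 fold change -0.89, limma adjusted p 0.00614). USP7, a deubiquitinase of such forms, fell by 0.64 on the log2 scale and PCGF5, a ring finger partner, rose by 0.59. Without the first WT library USP7 did not pass (adjusted p 0.0728), and PCGF5 did not pass after scaling (0.0581) or without the second WT (0.171), first KO (0.0696) or second KO library (0.151). Among 8 tested erasers of Polycomb marks 2 were called, 25% against 27% of all genes, with a median of -0.15 (0 higher and 2 lower after scaling). BAP1 rose by 0.42 and MBD6 fell by 0.46, with adjusted p of 0.0496 and 0.0476. Both failed whichever library was left out, and BAP1 also failed after scaling (0.31, adjusted p 0.118). Of the histone demethylases that remove the PRC2 mark, KDM6A (-0.12, adjusted p 0.552) did not pass. KDM6B (-0.45, adjusted p 0.0555) did not pass as deposited, but did after scaling (0.0343) and without the mean-variance trend (0.0445). With a pseudocount of 0.1 (0.0648), without the filter (0.122) or with a replicate block (0.0917) KDM6B did not pass.

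RBBP4 and RBBP7 also belong to other complexes, and several of their partners there were lower in KO. Of 26 tested genes 1 rose and 7 fell, 30.8% against 27%, with a median of -0.20 (1 and 9 after scaling). GATAD2A of the NuRD deacetylase complex fell from 41.1 ± 1.55 to 22.1 ± 0.0919 FPKM (-0.86), MTA2 of the same complex by 0.49, and CHAF1A of the histone chaperone CAF-1 by 0.51. SMARCA1, a remodelling ATPase, rose from 6.11 ± 0.863 to 12.5 ± 0.488 FPKM (0.93). MTA2 and CHAF1A did not pass without the first WT, second WT or second KO library (adjusted p 0.0631 to 0.0974), whereas GATAD2A and SMARCA1 passed without each library.

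Of 25 tested chromatin activators that oppose Polycomb 1 was called higher and 8 lower, with a median of -0.19 (1 and 9 after scaling). That is 36.0%, against 27% of all genes (16.2% higher and 10.8% lower). It was the largest share among the lists, just above the 35.0% of the E2F, RB and DREAM genes. The remodeller ATPase gene SMARCA4 fell from 45.6 ± 4.25 to 24.9 ± 2.60 FPKM (-0.85), and ARID1A, a subunit of the same SWI/SNF complex, from 11.1 ± 0.233 to 5.58 ± 0.445 (-0.88). ARID1B fell by 0.67, and SMARCA2, the alternative ATPase, rose by 0.77. SMARCA4 and ARID1A passed without each library. SMARCA2 did not pass without the first WT (adjusted p 0.0515) or second KO library (0.0668), nor ARID1B without the first WT (0.0593), second WT (0.0515) or second KO library (0.102).

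Genes of the E2F, RB and DREAM group moved in both directions, and EZH2 itself did not pass. Whether they control EZH2 in these cells was not tested. Of 20 tested E2F, RB and DREAM genes 2 rose and 5 fell, 35.0% against 27%, with a median of -0.023 (2 and 7 after scaling). E2F3 fell from 22.6 ± 2.03 to 13.8 ± 0.389 FPKM (-0.67), and the E2F partner gene TFDP1 by 0.58, MYBL2 by 0.72 and MYC by 0.57. HBP1, a repressor named in the series title, rose by 1.08 and LIN54, a DNA-binding DREAM subunit, by 0.57. E2F1 (0.15, adjusted p 0.353), E2F2 (-0.12, adjusted p 0.550) and RB1 (-0.0071, adjusted p 0.978) did not pass. E2F3 and TFDP1 did not pass without the first WT library (0.0712 and 0.0727), MYBL2 without the second WT (0.0526), MYC without the first or the second WT (0.0635 and 0.0584), HBP1 without the second KO (0.0616) and LIN54 failed whichever library was left out.

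EZH2 usually follows the share of dividing cells, so proliferation genes were read beside it. Of 24 tested genes 2 rose and 4 fell, 25% against 27%, with a median of -0.089 (1 and 6 after scaling). MKI67, the usual marker of division, had a mean of 29.2 ± 2.35 FPKM in WT and of 29.1 ± 3.94 in KO, a log2 fold change of -0.0088 (adjusted p 0.97). RRM2 fell by 0.75, PLK1 by 0.78 and MCM3 by 0.48, whereas CDK1 rose by 0.66 and TOP2A by 0.60. RRM2 passed without each library. PLK1 and MCM3 did not pass without the first or second WT library (adjusted p 0.0768 to 0.0909), CDK1 without the second WT or second KO (0.096 and 0.0722), and TOP2A without the second WT, first KO or second KO library (0.0751 to 0.158) or after scaling (0.051).

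Among genes that PRC2 is known to silence, those expressed enough here to be tested did not move one way. Of 28 genes reported as silenced by EZH2, 25 were listed and 13 tested, with 2 called higher and 2 lower, 30.8% against 27%, and a median of -0.038 (2 and 5 after scaling). FBXO32, a ubiquitin ligase subunit, rose from 0.82 ± 0.523 to 6.55 ± 1.76 FPKM (2.06) and VASH1, an inhibitor of blood vessel growth, from 1.05 ± 0.127 to 2.15 ± 0.361 (0.61). LAMB3, a laminin chain, fell by 0.72 and DAB2IP, a RAS inhibitor, by 0.69. FBXO32 and LAMB3 passed without each library, VASH1 failed whichever was left out, and DAB2IP failed without the first WT, second WT or second KO library (0.0522 to 0.0969). CDH1, the E-cadherin gene and a well-known EZH2 target, was listed at 0 in both WT libraries and at 0.03 and 0.02 FPKM in KO. CDH1 was 1 of 11 genes of this list that stayed under 1 FPKM in all 4 libraries and so were not tested.

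Developmental transcription factors that carry the PRC2 mark in pluripotent cells were mostly silent. Of 41 that were listed, 26 were under 1 FPKM in all 4 libraries, and 15, 15, 14 and 13 reached 1 FPKM in the first WT, second WT, first KO and second KO library. Of 15 tested 4 were called lower and 0 higher, 26.7% against 27%, with a median of -0.30 (0 and 5 after scaling). IRX5, among these 4, was at 1.01 and 1.42 FPKM in WT and at 0.35 and 0.17 in KO. It met the filter through its WT values only, so its call carries no weight. GATA2 fell from 18.2 ± 1.25 to 3.46 ± 0.884 FPKM (-2.12, adjusted p 0.000794), FOXC1 from 7.65 ± 0.0707 to 3.70 ± 0.0636 (-0.88) and IRX3 from 6.53 ± 0.219 to 3.33 ± 0.120 (-0.80). IRX3 failed with the second KO library left out (adjusted p 0.0541), whereas GATA2 and FOXC1 passed without each library.

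**Figure D5:**
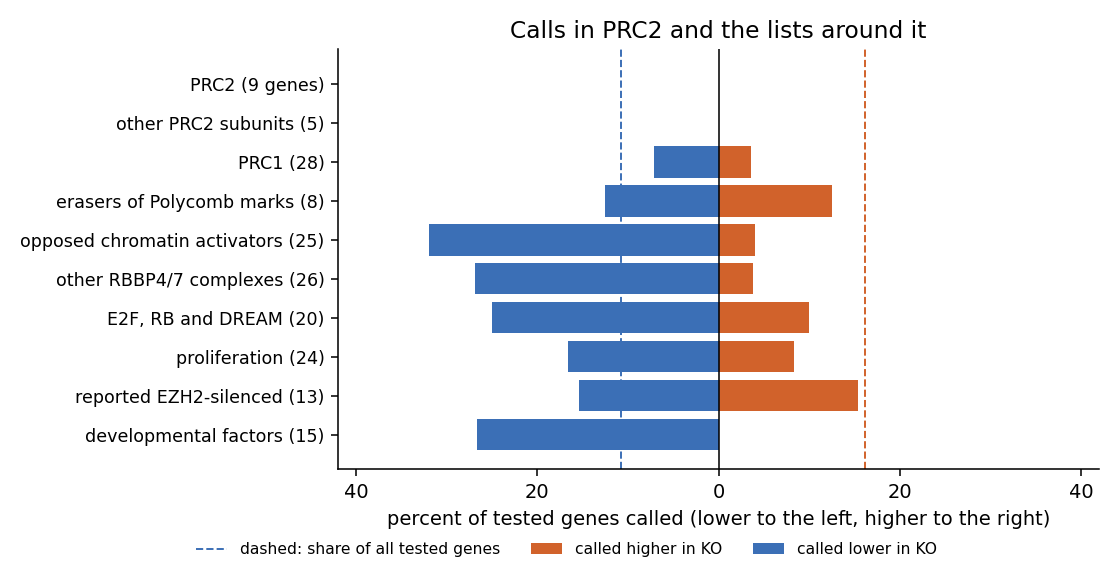
Percent of tested genes called lower (blue, to the left) or higher (orange, to the right) in KO, for PRC2 and the lists around it, with the number of tested genes in brackets and the share of all tested genes dashed (10.8% lower, 16.2% higher). PRC2 and its other subunits have no call, and the opposed chromatin activators have the longest blue bar.

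The 9 lists together held 164 tested genes, of which 10 were called higher and 33 lower, against 7 and 48 after scaling. More list genes were thus called lower than higher on both scales. Over all genes the split was 1906 higher and 1278 lower, against 1413 and 1828 after scaling, so there the balance turned with the scaling. Without the first WT, second WT, first KO or second KO library 19, 18, 33 and 20 list genes were called, and with no filter on low values, where more genes are tested, 3.

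Summed FPKM was 504102 and 520527 in the WT libraries against 528986 and 544650 in KO. Genes at 1 FPKM or more numbered 11283 and 11344 in WT and 11720 and 11723 in KO, and genes listed at 0 numbered 3324 and 3308 against 3022 and 2994. The groups thus stood apart in all of these, and the part of this in the results was not tested beyond the scaling. Rank correlations across genes were 0.979 within WT, 0.980 within KO and 0.966 to 0.970 between the groups. Read counts were not used here and depth is unknown, so no counting error is attached to a single value. Mature microRNAs are not captured by libraries of this kind, so these data do not check the loss of miR-3662. The identity of the line was read from markers. Of the receptor genes that define triple-negative cells 2 of 3 were listed, ESR1 at 0.01 FPKM or less and ERBB2 at 8.55 to 11.44. PGR, the progesterone receptor gene, was not listed and could not be read. The mesenchymal gene VIM was at 1119.82 to 1320.76. Of the 4 markers of mesenchymal-like lines CAV1 was called, from 175 ± 5.96 to 446 ± 4.89 FPKM (limma adjusted p 0.000536), and VIM, CD44 and EGFR were not. Luminal markers (4 of 4 listed) summed to 16.2 and 22.2 FPKM in WT and to 19.3 and 28.4 in KO, mostly KRT19. CDH1 was at 0.03 or less. EPCAM was at 1.08 and 1.15 FPKM in WT and at 0.34 and 0.05 in KO. It met the filter through its WT values only, so its call as lower in KO carries no weight. Leukocyte markers (3 of 4 listed) summed to 0.07 to 0.25 FPKM, with PTPRC and CD3E at 0. Endothelial markers (3 of 3 listed) summed to 0.12 and 0.15 FPKM in WT and to 0.27 and 0.45 in KO. Fibroblast markers (3 of 4 listed) summed to 1.14 and 1.54 in WT and to 0.38 and 0.33 in KO, nearly all of it COL1A1, with COL1A2 at 0.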

How the data were processed

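The authors deposited 1 table with an FPKM value per gene and library, rounded to 2 decimals, per the file headers. The submitters' processing notes name HISAT, StringTie, Cufflinks and GATK and the build hg38. The notes give neither roles nor versions. The test was KO against WT on log2(FPKM + 1) over all 4 libraries, a scale that understates fold changes of low genes. It covered the 11786 genes that reached 1 FPKM in 2 or more libraries, by limma 3.58.1 (R 4.3.3) with a trend of variance on mean. The p-values were adjusted by Benjamini-Hochberg over these genes and called under 0.05. Ratios of paralogs used FPKM without a pseudocount and an exact permutation test (SciPy 1.17.1). Tables were handled with Python 3.11.15 and pandas 2.3.3. The fit was tested on simulated data.

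The PRC2 genes and the gene lists were chosen with earlier results of these data known. Named were all 9 PRC2 genes, up to 3 called genes per direction and list with the smallest p, and the partners or regulators AEBP2, PHF1, EPOP, LCOR, KDM6A, KDM6B, RB1, E2F1, E2F2, E2F3 and MKI67. Outside this rule, CDH1 and IRX5 were named after their values were seen. Depth is unknown, since FPKM carries no counts. List genes were matched by RefSeq identifier (19694 of 20804 found, GRCh38.p14). Alternatives were scaling by the median of ratios, a pseudocount of 0.1, no filter or one of 5 FPKM, no trend, a replicate block and leaving out each library.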

Additional observations from a re-analysis of the deposited data

How the results depend on the processing

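Of 98 alternative values of the 9 PRC2 genes, 92 kept both their direction and their side of the threshold. EED alone was called, and only after scaling (1 gene called) and with the crossed block (1 gene called). The 4 reversals came from leaving out 1 library: SUZ12 ran from -0.32 to 0.21, MTF2 from -0.14 to 0.12 and RBBP7 from -0.13 to 0.0029. Without the filter on low values 525 of all genes and 3 of the list genes were called, against 3184 and 43. Without 1 library 1402 to 1902 genes and 18 to 33 list genes were called. The log2 ratio of EZH2 over EZH1 differed by -0.89 to -0.38, that of RBBP4 over RBBP7 by -0.083 to 0.047 and that of MTF2 over PHF19 by -0.03 to 0.42 when 1 library was left out. Of 41 other named genes LCOR reversed after scaling (-0.069), and with 1 library left out LCOR ran from -0.22 to 0.27, RB1 from -0.16 to 0.14 and MKI67 from -0.14 to 0.12. EPOP gained a call in 4 settings and KDM6B in 3. Of 31 called named genes 21 lost the call without at least 1 library and 28 without the filter. GATAD2A, RRM2 and GATA2 alone kept the call without the filter. The causes were not tested.

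The titles number the replicates, but nothing says that equal numbers share a culture, and deviations of same-numbered libraries correlated at -0.177 across 11786 genes. With the replicate block 2864 genes, 0 PRC2 genes and 38 list genes were called. A block with the numbers crossed, chosen after seeing the data, called 4170, 1 and 55. The main fit left 2 residual degrees of freedom per gene, and fits with a block or with a library left out had fewer. These small numbers limit the tests here, and depth could not be read.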
